A study of Homo sapiens with 36 samples.

Results

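The genes of tight junctions, gap junctions and desmosomes were examined in LNCaP prostate cancer cells with and without a HIF1a transgene. The set was taken by name from the array's annotation. It held the claudins (CLDN), desmocollins (DSC), desmogleins (DSG), plakophilins (PKP), TJP genes and connexins (GJA, GJB, GJC), together with CDH1, CDH2, OCLN, JUP, DSP, MARVELD2, EPCAM, GRHL2 and ESRP1. It came to 57 genes of the 20045 with a named probe, and each gene was read from its brightest probe over all arrays. F11R was on the list and had no probe named for it. By family there were 23 claudins, 3 other tight junction genes, 2 classical cadherins, 7 desmosomal cadherins, 6 desmosomal plaque genes, 13 connexins and the group of 3 formed by EPCAM, GRHL2 and ESRP1.

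Tight junctions seal the space between neighbouring epithelial cells, and claudins form their strands. Desmosomes anchor cells to each other through desmocollins and desmogleins, which are tied to keratin filaments by plakoglobin (JUP), plakophilins and desmoplakin (DSP), while connexins form channels that let small molecules pass between cells. In prostate epithelium these junctions hold the luminal cell layer together, with E-cadherin (CDH1) at the adherens junction beside them.

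RNA was measured on 36 Illumina BeadArrays in 7 groups of LNCaP cells, a human androgen-sensitive line from a lymph node metastasis. LNCaP/Empty carried the empty vector, and the clones labelled HIF12 and HIF49 carried HIF1a delivered by retrovirus with substitutions that keep it from being degraded in oxygen. Both LNCaP/Empty and HIF12 were kept in charcoal stripped serum for 96 h and then given R1881, a synthetic androgen, at 1 nM, or vehicle, which was 0.01% ethanol, for 4 h, and each of these groups had 5 arrays. A further treatment label, Normal, covered LNCaP/Empty (6 arrays), HIF12 (5 arrays) and HIF49 (5 arrays), and the labels do not define it. Each HIF1a line was 1 clone, so that the effect of the transgene and other differences between clones cannot be told apart. The labels do not tie the arrays of a group to separate cultures, so p-values measure the spread between arrays, which may be technical.

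Between 15374 and 17839 probes were detected per array, and for 35 of 36 arrays the closest match was from the same group. The exception was HIF49 replicate 4. Levels are given as log2 intensity, and the level of 1 gene was not set against that of another. HIF1A read 7.94 to 8.94 on the LNCaP/Empty arrays and 9.46 to 10.31 on the HIF12 arrays. On the HIF49 arrays HIF1A read 7.45 in replicate 1 and 10.00 to 10.35 in the other 4, so that replicate 1 went against its label, and results for HIF49 are given with and without it. KLK3, the androgen-responsive gene for prostate specific antigen, rose with R1881 by 1.27 ± 0.14 (log2, SE) in LNCaP/Empty and by 1.06 ± 0.14 in HIF12 (limma adjusted p = 1.1e-07 and 6.8e-06). Of 10 luminal prostate markers measured, 8 were detected on all arrays. Of 4 basal markers measured, the keratins KRT5, KRT14 and KRT15 were detected on none, and ITGA6 was detected on some arrays.

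Of the 57 genes, 20 were detected on all 36 arrays (detection p under 0.01), 14 on some arrays and 23 on none. Among all 20045 genes, 8394 were detected on all arrays and 7469 on none. The claudins detected on all arrays were CLDN3, CLDN7, CLDN8, CLDN12, CLDN14, CLDN15 and CLDN23, and a further 6 claudins were detected on some arrays. TJP1, which encodes the scaffold ZO-1, and MARVELD2, which encodes tricellulin, were detected throughout, while OCLN, the gene for occludin, was not detected on any array. CDH1 was detected on every array and CDH2, the gene for N-cadherin, on none. DSC2 and DSG2 were the desmosomal cadherins detected throughout, DSC3 was detected on 27 arrays and DSC1 on 8, and DSG1, DSG3 and DSG4 were detected on none. In the plaque, JUP, DSP, PKP3 and PKP4 were detected throughout, PKP2 on 6 arrays and PKP1 on none. Among connexins only GJC1 was detected on all arrays, GJB1 was detected on 28, and 7 of 13 were detected on none. The second probe of GJC1 was detected on no array, so its level rests on 1 probe. CLDN22 and CLDN24 are near-identical copies whose signals a probe might not tell apart, and neither was detected.

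**Figure D1:**
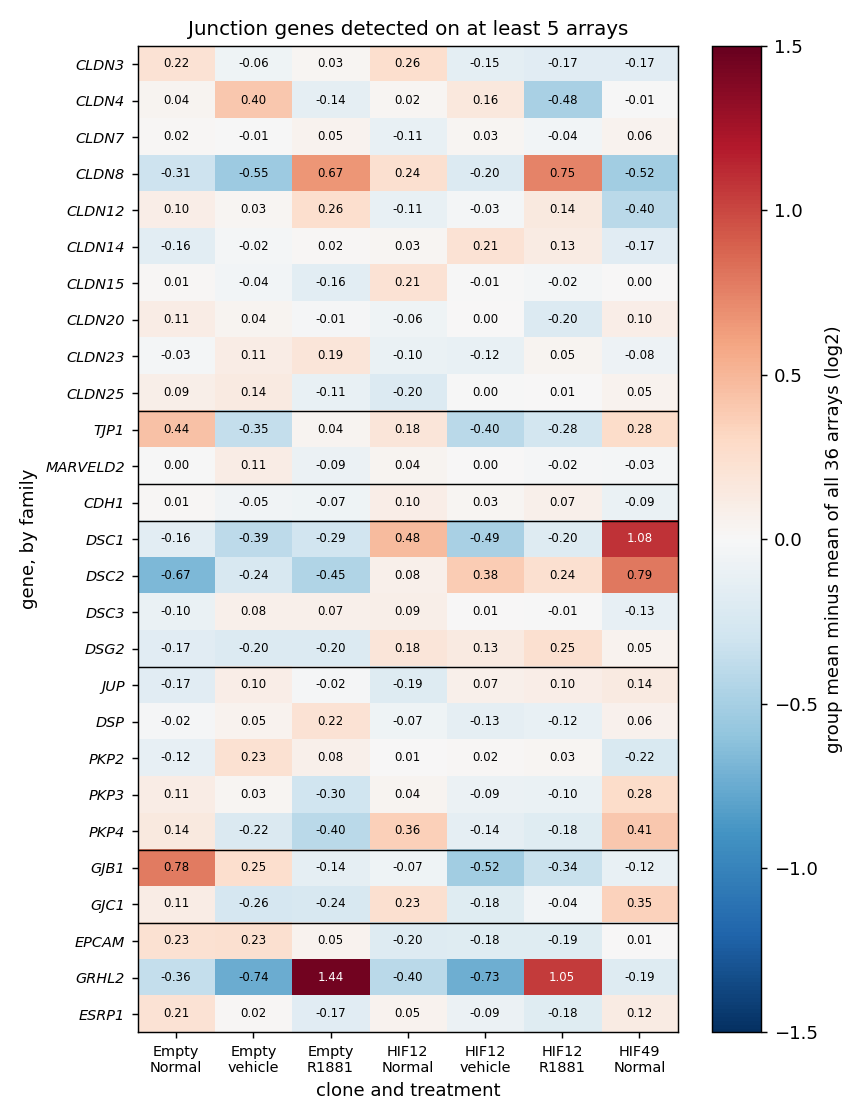
Group mean of each of the 27 genes detected on at least 5 arrays, minus that gene's mean over all 36 arrays (log2), with rows grouped by family and columns by clone and treatment. GRHL2 and CLDN8 are high in both R1881 columns, DSC2 is high in the HIF1a clones, DSC1 in their Normal columns, and GJB1 is highest in LNCaP/Empty Normal. DSC1, GJB1 and 5 others include arrays below detection.

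A gene was called where limma gave a Benjamini-Hochberg adjusted p under 0.05 over all 48105 probes and the change was at least 1.5-fold. In these bulk samples, fewer cells expressing a gene and less of its RNA per cell cannot be told apart. The first question was how androgen acted on junction genes. With R1881 in LNCaP/Empty, 2 of 57 were called higher and 0 lower, where 1.23% of all genes were called higher and 0.464% lower. With R1881 in HIF12, 2 were again called higher and 0 lower, where 1.02% of all genes were called higher and 0.22% lower. The genes were GRHL2 and CLDN8 in both lines. At an unadjusted p under 0.05 in limma there were 8 of 57 in LNCaP/Empty, or 14%, against 11% of all genes, and 5 in HIF12, or 8.77%, against 8.66%. The median change over the set was 0.00 in each line, as against -0.01 over all genes in each.

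GRHL2 encodes a transcription factor that maintains epithelial identity and activates junction genes such as CDH1 and claudins. It read 8.43, 8.70, 8.87, 8.87 and 8.98 on the LNCaP/Empty vehicle arrays and 10.78, 11.00, 10.88, 11.11 and 10.99 with R1881. The 5 R1881 arrays lay well above the 5 vehicle arrays with no overlap. On the HIF12 arrays GRHL2 read 8.61, 8.54, 8.64, 9.28 and 8.82 with vehicle and 10.45, 10.51, 10.52, 10.45 and 10.84 with R1881. These groups did not overlap either, although vehicle replicate 4 sat above its group. The rise was 2.19 ± 0.11 (SE) on the log2 scale in LNCaP/Empty, or 4.55-fold (limma adjusted p = 6.8e-17). In HIF12 it was 1.78 ± 0.11, or 3.43-fold (limma adjusted p = 4.2e-14). The rise was smaller in HIF12 by 0.41 ± 0.15, with a 95% interval of -0.71 to -0.10 for the difference, which did not pass adjustment (limma adjusted p = 1). GRHL2 was measured by 1 probe.

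CLDN8 encodes a claudin that forms a barrier to cations. In LNCaP/Empty it read 8.63, 9.21, 8.86, 9.06 and 8.12 with vehicle and 9.79, 10.18, 9.92, 9.95 and 10.14 with R1881. Every R1881 array exceeded every vehicle array, and vehicle replicate 5 was the lowest of all 36 arrays. In HIF12 CLDN8 read 8.87, 9.03, 9.23, 9.40 and 9.09 with vehicle and 9.86, 10.25, 9.93, 10.14 and 10.17 with R1881, again without overlap. CLDN8 rose by 1.22 ± 0.14 in LNCaP/Empty, or 2.32-fold, and by 0.95 ± 0.14 in HIF12, or 1.93-fold (limma adjusted p = 7.5e-08 and 1.5e-05). Its second probe rose by 1.09 and 0.90 (limma adjusted p = 1.6e-05 and 0.00052). The difference between the rises was -0.27, with a 95% interval of -0.66 to 0.12, and was not called (limma adjusted p = 1).

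The other claudins gave no call with R1881. CLDN4 had the lowest estimates, -0.54 ± 0.25 in LNCaP/Empty and -0.64 ± 0.25 in HIF12, and neither passed (limma adjusted p = 0.53 and 0.47). CLDN4 was dim and varied between arrays, from 5.04 to 6.33 on the HIF12 R1881 arrays. The 7 desmosomal cadherins, 6 plaque genes and 13 connexins gave no call in either line. CDH1, whose product joins adherens junctions, changed by -0.02 and 0.04 with R1881, and its 95% intervals lay within -0.22 to 0.24. No junction gene passed the test of a difference in androgen effect between HIF12 and LNCaP/Empty, where 0.00998% of all genes passed. At an unadjusted p under 0.05 in limma there were 3, or 5.26% against 4.33% of all genes. They were GRHL2, GJB1 and OCLN, and OCLN was not detected on any array.

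**Figure D2:**
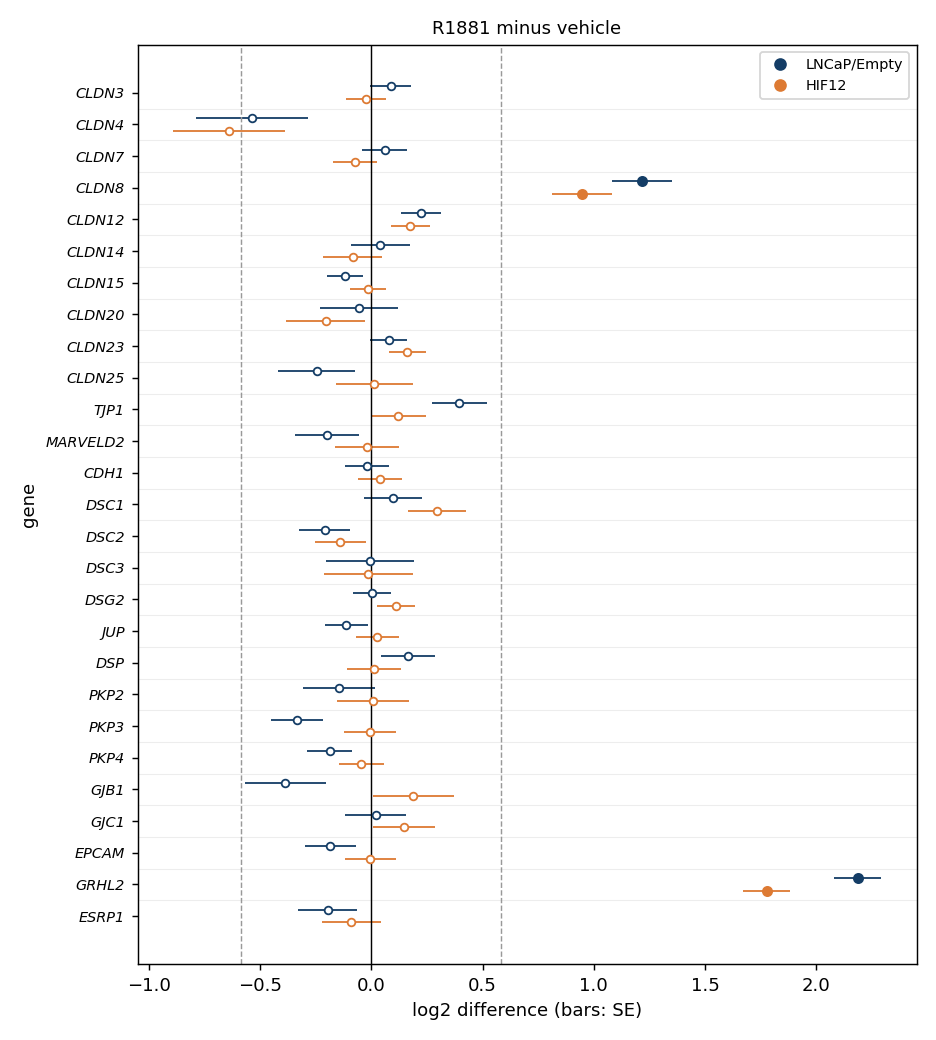
Difference of R1881 minus vehicle (log2, points, with SE bars) for the 27 junction genes detected on at least 5 arrays, in LNCaP/Empty (blue) and HIF12 (orange). Filled points were called and dashed lines mark 1.5-fold. GRHL2 and CLDN8 stand to the right in both lines, and every other gene has open points.

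The next question was how the HIF1a clones differed from LNCaP/Empty. In vehicle, HIF12 had 1 of 57 called higher than in LNCaP/Empty, DSC2, and 1 lower, GJB1, where 0.878% of all genes were called higher and 0.798% lower. In R1881 it had 1 called higher, DSC2, and 0 lower, where 1.4% of all genes were called higher and 0.933% lower. In Normal HIF12 had 2 called higher, DSC2 and DSC1, and 1 lower, GJB1, where 0.953% of all genes were called higher and 0.893% lower. HIF49 in Normal had DSC2 and DSC1 called higher and GJB1 lower, where 0.758% of all genes were called higher and 0.733% lower. These comparisons share arrays: both Normal comparisons use the same 6 LNCaP/Empty arrays.

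The desmosomal cadherin genes and CDH2 follow each other on chromosome 18, in the order CDH2, DSC3, DSC2, DSC1, DSG1, DSG4, DSG3, DSG2 among protein-coding genes of RefSeq GRCh38.p14. The promoter windows of the 3 neighbours with an adjusted p under 0.05 in at least 1 comparison of a HIF1a clone with LNCaP/Empty are shown, and that of GJB1, which went the other way. Each runs 5′ to 3′ on the gene's strand from 250 bases before the start to 50 after it (RefSeq, GRCh38.p14), in lower case. Capitals mark 2 motifs: the E-box CACCTG, or CAGGTG on the other strand, to which SNAI and ZEB repressors can bind, and GCGTG, or CACGC on the other strand, the core of a HIF response element.
DSC2, chr18:31102372-31102671, minus strand: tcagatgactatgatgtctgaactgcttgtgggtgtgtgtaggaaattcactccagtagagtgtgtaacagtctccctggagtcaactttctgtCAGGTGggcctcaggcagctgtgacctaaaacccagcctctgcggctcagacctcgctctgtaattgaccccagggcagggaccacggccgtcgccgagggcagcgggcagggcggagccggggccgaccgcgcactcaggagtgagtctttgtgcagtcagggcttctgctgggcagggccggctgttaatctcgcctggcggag
DSC1, chr18:31162807-31163106, minus strand: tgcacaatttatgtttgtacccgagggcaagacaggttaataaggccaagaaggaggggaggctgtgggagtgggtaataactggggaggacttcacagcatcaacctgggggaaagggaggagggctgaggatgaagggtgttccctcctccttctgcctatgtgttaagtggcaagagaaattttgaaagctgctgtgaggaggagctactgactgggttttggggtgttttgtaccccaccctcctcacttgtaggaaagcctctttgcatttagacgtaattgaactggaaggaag
DSG2, chr18:31497927-31498226, plus strand: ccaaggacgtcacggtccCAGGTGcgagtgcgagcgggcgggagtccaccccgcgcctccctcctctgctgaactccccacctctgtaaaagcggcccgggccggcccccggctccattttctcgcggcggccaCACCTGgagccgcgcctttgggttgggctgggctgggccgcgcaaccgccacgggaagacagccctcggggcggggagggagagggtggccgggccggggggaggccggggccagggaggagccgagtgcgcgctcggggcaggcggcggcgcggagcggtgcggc
GJB1, chrX:71214989-71215288, plus strand: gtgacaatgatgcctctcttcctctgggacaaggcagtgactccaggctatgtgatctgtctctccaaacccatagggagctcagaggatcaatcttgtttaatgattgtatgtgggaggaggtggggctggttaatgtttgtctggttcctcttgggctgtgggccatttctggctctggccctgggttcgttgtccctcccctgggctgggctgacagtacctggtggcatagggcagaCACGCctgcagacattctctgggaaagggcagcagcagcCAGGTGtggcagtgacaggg

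The E-box stood once in the DSC2 window, at 2 places in the DSG2 window, once in the GJB1 window and nowhere in the DSC1 window. It was found in 13 of the 40 member promoters in the table, or 32.5%, and in 20.6% of all 27305 promoters. The HIF core GCGTG stood once in the GJB1 window and in none of the 3 cadherin windows. It was found in 12 of 40 member promoters, or 30%, against 36.3% of all, and its other common form ACGTG in 6 of 40, or 15%, against 21.6%. A match describes the letters in these windows and says nothing about binding. GRHL2 and CLDN8 were not among the 40 members with a promoter sequence, so they could be neither shown nor counted.

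DSC2 encodes desmocollin 2, the widely expressed partner of desmoglein 2. On vehicle arrays it read 10.78, 11.08, 10.92, 10.90 and 10.82 in LNCaP/Empty and 11.53, 11.57, 11.54, 11.38 and 11.58 in HIF12. On R1881 arrays it read 10.50, 10.90, 10.53, 10.88 and 10.65 in LNCaP/Empty and 11.28, 11.63, 11.26, 11.44 and 11.28 in HIF12. Under both treatments every HIF12 array exceeded every LNCaP/Empty array. In Normal DSC2 ranged from 10.16 to 10.66 in LNCaP/Empty (median 10.53, 6 arrays), read 11.25, 11.16, 11.10, 11.38 and 11.20 in HIF12, and 12.37, 11.76, 11.92, 12.07 and 11.54 in HIF49. The 3 lines did not overlap in Normal, with LNCaP/Empty lowest and HIF49 highest.

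DSC2 was higher in HIF12 by 0.62 ± 0.11 in vehicle, 0.69 ± 0.11 in R1881 and 0.75 ± 0.11 in Normal, which is 1.53-, 1.61- and 1.68-fold (limma adjusted p = 0.00073, 0.00013 and 1.2e-05). With running numbers of the arrays in blocks of 12 as a term, the vehicle difference was 0.58, under 1.5-fold. In HIF49 it was higher by 1.47 ± 0.11, or 2.76-fold (limma adjusted p = 5e-12), and by 1.36 without replicate 1 (limma adjusted p = 1.7e-11). HIF49 also exceeded HIF12, by 0.71 ± 0.11, or 1.64-fold (limma adjusted p = 4e-05), and by 0.60 without replicate 1 (limma adjusted p = 0.00021). The probes of DSC2 differed. The second, dimmer probe was detected on every array and was called in both Normal comparisons with LNCaP/Empty, at 0.84 ± 0.24 in HIF12 and 1.19 ± 0.24 in HIF49 (limma adjusted p = 0.041 and 0.0017), or 1.55 without replicate 1 (limma adjusted p = 3.9e-07). In HIF12 it gave 0.13 ± 0.25 in vehicle and -0.15 ± 0.25 in R1881 (limma adjusted p = 0.93 and 0.87), so the calls under those treatments rest on the brightest probe.

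DSC1 encodes desmocollin 1, known from the upper layers of the epidermis. It was detected on none of the 16 LNCaP/Empty arrays and on no HIF12 array with vehicle or R1881. In Normal it was detected on 3 of 5 HIF12 arrays, at 6.29, 6.12 and 6.03, and on all 5 HIF49 arrays, at 6.58, 6.66, 6.56, 6.29 and 6.77. These levels lay close to the detection floor, which ran from 5.69 to 6.13 over the arrays. Against a group that is not detected a fold is only a lower bound, taken here from the lowest detected signal on each array. Calls and p-values beside such bounds rest on the fitted difference, which uses levels under the floor, and do not test the bound. DSC1 was at least 1.05-fold higher in HIF12 and at least 1.59-fold higher in HIF49 than in LNCaP/Empty Normal (limma adjusted p = 0.0012 and 9.9e-09), and the HIF49 bound without replicate 1 was again 1.59-fold (limma adjusted p = 7.5e-08). The second probe of DSC1 was detected on 2 of 5 HIF49 arrays and on no other array, and was at least 1.06-fold higher in HIF49 (limma adjusted p = 7.4e-06), or 1.03-fold without replicate 1 (limma adjusted p = 5.3e-05). Between the clones the brightest probe was higher in HIF49 by 0.60 ± 0.13, with 3 of 5 HIF12 arrays detected and the arrays overlapping (limma adjusted p = 0.0026), and by 0.60 without replicate 1 (limma adjusted p = 0.0058). That difference fell under 1.5-fold when any 1 of 4 arrays was left out, HIF49 replicate 2 or 5 or HIF12 Normal replicate 2 or 4, at 0.51 to 0.58. Without background correction the DSC1 differences from LNCaP/Empty were 0.26 in HIF12 and 0.53 in HIF49, both under 1.5-fold.

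DSG2, the gene for the desmoglein found in all desmosome-bearing epithelia, was higher in HIF12 under all 3 treatments with an adjusted p under 0.05 but stayed under 1.5-fold. The differences were 0.34 ± 0.09 in vehicle, 0.44 ± 0.09 in R1881 and 0.35 ± 0.08 in Normal (limma adjusted p = 0.021, 0.00093 and 0.0084). In Normal DSG2 ranged from 11.96 to 12.18 in LNCaP/Empty and from 12.38 to 12.52 in HIF12, without overlap. Its second probe did not pass in any of the 3 (limma adjusted p = 0.97, 0.96 and 0.44). In HIF49 the brightest probe of DSG2 did not pass, and its difference was 0.20 without replicate 1 (limma adjusted p = 0.32). The neighbours CDH2, DSG1, DSG3 and DSG4 were not detected, and DSC3, a desmocollin of basal layers, gave no call in any comparison.

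GJB1 encodes connexin 32, a channel of luminal prostate cells and hepatocytes. On vehicle arrays it read 6.54, 6.71, 6.54, 6.18 and 6.27 in LNCaP/Empty, all detected, and 5.93, 5.99, 5.82, 5.28 and 5.34 in HIF12, with 3 detected. On Normal arrays it ranged from 6.70 to 7.19 in LNCaP/Empty and read 6.01, 6.66, 5.94, 6.08 and 5.94 in HIF12, all detected. In both conditions every HIF12 array lay below every LNCaP/Empty array. In HIF49 GJB1 read 6.70 in replicate 1, which overlapped LNCaP/Empty, and 6.19, 5.84, 5.54 and 6.13 in the others, with 3 of 5 detected.

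GJB1 was lower in HIF12 by 0.77 ± 0.18 in vehicle and by 0.85 ± 0.17 in Normal, which is 1.71- and 1.80-fold (limma adjusted p = 0.01 and 0.0019). In HIF49 it was lower by 0.90 ± 0.17 (limma adjusted p = 0.0013), and by 1.05 without replicate 1 (limma adjusted p = 1e-04). In R1881 the difference was -0.20 ± 0.18 and did not pass (limma adjusted p = 0.72), with 3 of 5 arrays detected in each line. Without background correction the GJB1 differences were -0.33 in vehicle, -0.42 in HIF12 Normal and -0.44 in HIF49, all under 1.5-fold with an adjusted p under 0.05 in limma.

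Of the remaining genes detected on all arrays, EPCAM, the epithelial cell adhesion molecule, was lower in HIF12 by 0.42 ± 0.11 in vehicle and by 0.42 ± 0.11 in Normal, under 1.5-fold (limma adjusted p = 0.038 and 0.021). Its arrays did not overlap in either comparison, ranging in Normal from 12.41 to 12.65 in LNCaP/Empty and from 11.96 to 12.21 in HIF12. These EPCAM values are from the brightest of 3 probes, and the others are not given here. EPCAM did not pass in R1881 or in HIF49, where its difference was -0.07 without replicate 1 (limma adjusted p = 0.87). CLDN12 was lower in HIF49 by 0.50 ± 0.09 and CLDN3 by 0.39 ± 0.09, both under 1.5-fold (limma adjusted p = 0.00021 and 0.007). Without replicate 1 these differences were -0.46 and -0.40 (limma adjusted p = 0.0012 and 0.0087). GRHL2 was lower in HIF12 than in LNCaP/Empty under R1881, by 0.40 ± 0.11 (limma adjusted p = 0.023). CDH1 gave no call in any comparison of groups, and its differences did not exceed 0.19 in size. The widest of them, HIF49 against HIF12, was -0.19 with a 95% interval of -0.39 to 0.01, and it was -0.06 without HIF49 replicate 1.

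**Figure D3:**
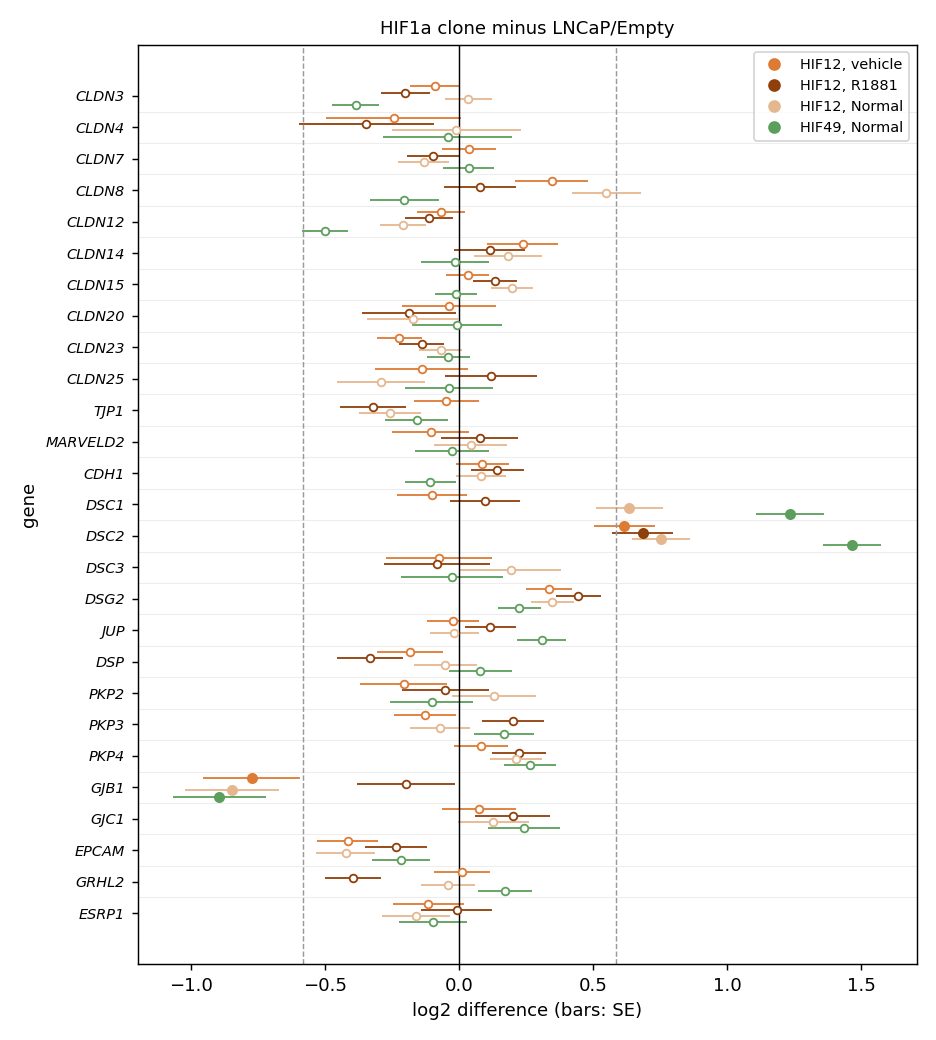
Difference of each HIF1a clone minus LNCaP/Empty (log2, points, with SE bars) for the 27 genes detected on at least 5 arrays, for HIF12 in vehicle, R1881 and Normal and for HIF49 in Normal. Filled points were called and dashed lines mark 1.5-fold. DSC2 lies to the right of 1.5-fold in all 4 comparisons, DSC1 in both Normal comparisons and GJB1 to the left in all but R1881.

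Between the clones, HIF49 had 2 of 57 called higher than HIF12 in Normal, DSC2 and DSC1, and 1 lower, CLDN8, where 1.66% of all genes were called higher and 1.15% lower. CLDN8 read 9.45, 9.66, 9.49, 9.58 and 9.63 in HIF12 and 8.47, 8.86, 8.86, 8.76 and 9.08 in HIF49. All HIF49 arrays lay below all HIF12 arrays. The difference was -0.75 ± 0.14, or 1.69-fold (limma adjusted p = 0.00023), and -0.67 without HIF49 replicate 1 (limma adjusted p = 0.0015). Its second probe gave -0.74 (limma adjusted p = 0.0024), and -0.60 without that array (limma adjusted p = 0.014). Against LNCaP/Empty Normal, which ranged from 8.83 to 9.18, CLDN8 was higher in HIF12 by 0.55 ± 0.13, under 1.5-fold (limma adjusted p = 0.009), and HIF49 gave no call. CLDN3 was lower in HIF49 than in HIF12 by 0.42 ± 0.09 (limma adjusted p = 0.0025), and JUP was higher by 0.33 ± 0.10 (limma adjusted p = 0.039), both under 1.5-fold. JUP was read from the brightest of 3 probes only. Without HIF49 replicate 1 the CLDN3 difference was -0.44 (limma adjusted p = 0.0032), and that of JUP was 0.20 and did not pass (limma adjusted p = 0.18). EPCAM and DSP then came under 0.05, higher in HIF49 by 0.35 and 0.32 and under 1.5-fold (limma adjusted p = 0.019 and 0.023).

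The vehicle and Normal groups of the same line differed over many genes, with 2.88% of all genes called higher with vehicle and 2.59% lower in LNCaP/Empty, and 3.47% higher and 2.35% lower in HIF12. Of the junction genes, 1 was called lower with vehicle in each line, TJP1 in LNCaP/Empty and DSC1 in HIF12, and 0 were called higher. TJP1 ranged from 10.80 to 11.04 in LNCaP/Empty Normal (median 10.93, 6 arrays) and read 10.21, 10.21, 10.33, 10.28 and 9.65 with vehicle. The vehicle arrays were all lower, with replicate 5 apart from its group. The difference was -0.79 ± 0.12, or 1.73-fold, and -0.89 on the second probe (limma adjusted p = 5.6e-06 and 1.3e-05). In HIF12 TJP1 read 10.73, 10.66, 10.55, 10.72 and 10.69 in Normal and 9.82, 10.11, 10.11, 10.17 and 10.23 with vehicle, also without overlap. That difference was -0.58 ± 0.12, or 1.49-fold, just under the fold threshold (limma adjusted p = 0.00093), and the second probe passed at -0.71 (limma adjusted p = 0.00063). With R1881 TJP1 in LNCaP/Empty read 9.98, 10.94, 10.47, 10.68 and 10.61, which overlapped the vehicle arrays, and its change from vehicle of 0.40 ± 0.12 did not pass (limma adjusted p = 0.11).

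DSC1 in HIF12, detected on 3 of 5 Normal arrays and on no vehicle array, was at least 1.08-fold lower with vehicle (limma adjusted p = 1.3e-06). Without background correction, and with the deposited normalized table, its fitted difference was -0.41, under 1.5-fold. The difference between lines in this change was -0.73 ± 0.18 and did not pass (limma adjusted p = 0.12), and no junction gene passed that test, where 0.215% of all genes did. Under 1.5-fold but with an adjusted p under 0.05 in limma, CLDN3, GRHL2 and PKP4 were lower with vehicle in both lines, and GJB1 in LNCaP/Empty and CLDN8 and TJP1 in HIF12. PKP4, which encodes a plaque protein shared by desmosomes and adherens junctions, was lower by 0.36 ± 0.10 in LNCaP/Empty and by 0.49 ± 0.10 in HIF12 (limma adjusted p = 0.01 and 0.00074). PKP4 was read from the brighter of 2 probes only. DSC2 went the other way in LNCaP/Empty, higher with vehicle by 0.44 ± 0.11 (limma adjusted p = 0.0051). The second probe of MARVELD2 was called higher with vehicle in LNCaP/Empty, by 0.63 ± 0.15 (limma adjusted p = 0.004), while its brightest probe was not.

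**Figure D4:**
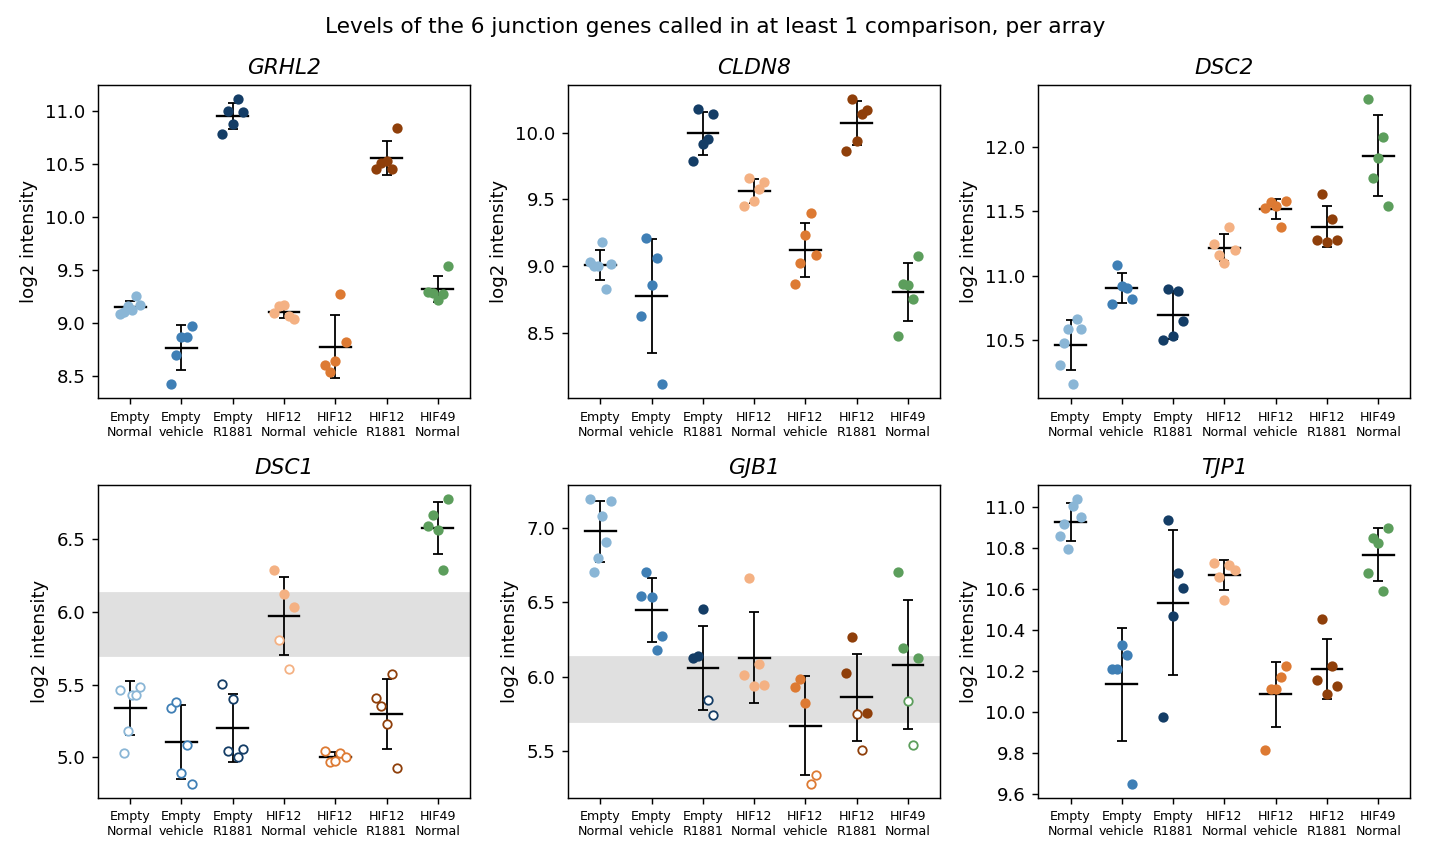
Level of GRHL2, CLDN8, DSC2, DSC1, GJB1 and TJP1 on each array (log2 intensity) in the 7 groups, with horizontal lines and bars for the group mean and SD and n = 5 arrays per group, or 6 in LNCaP/Empty Normal. Open points were not detected, and the grey band is the range of detection floors, 5.69 to 6.13. The R1881 groups stand apart for GRHL2 and CLDN8 and the HIF1a clones for DSC2. GJB1 is highest in LNCaP/Empty Normal, whose lowest array meets the highest of LNCaP/Empty vehicle and of HIF49.

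The partners of these genes were counted from lists. Over all genes, 1.23% were called higher and 0.464% lower with R1881 in LNCaP/Empty, and 1.02% and 0.22% in HIF12. For HIF12 against LNCaP/Empty the shares were 0.878% and 0.798% in vehicle, 1.4% and 0.933% in R1881 and 0.953% and 0.893% in Normal. For HIF49 in Normal they were 0.758% and 0.733% against LNCaP/Empty and 1.66% and 1.15% against HIF12. Vehicle against Normal gave 2.88% and 2.59% in LNCaP/Empty and 3.47% and 2.35% in HIF12. Of 12 adherens junction partners, CTNNA2, an alpha-catenin, was called higher with R1881 in both lines and lay at the detection floor. It was detected on no vehicle array and on 2 of 5 R1881 arrays in LNCaP/Empty and 3 of 5 in HIF12, which bounds the rise at 1.04-fold and 1.01-fold. NECTIN4, a nectin adhesion molecule, was called lower with R1881 in LNCaP/Empty, where 1 of 5 vehicle arrays and no R1881 array detected it, so no fold is given. NECTIN3 was detected on all 5 HIF49 arrays and on no Normal array of the other lines. It was at least 1.44-fold higher in HIF49 than in LNCaP/Empty and at least 1.46-fold higher than in HIF12, and 1.38- and 1.40-fold bounds held without replicate 1. Under R1881 it was detected on 3 of 5 LNCaP/Empty arrays and on no HIF12 array, and was at least 1.23-fold lower in HIF12. Of 24 polarity and tight junction scaffold genes, 1 rose with R1881 in LNCaP/Empty, PALS1, a polarity scaffold, by 0.62. JAM3, a junctional adhesion molecule, was higher in HIF12 than in LNCaP/Empty under R1881 and in Normal, by 0.92 and 0.59, with 1 of 5 LNCaP/Empty R1881 arrays detected. It was lower in HIF49, with 2 of 5 arrays detected, than in HIF12 by 0.99, and by 1.05 without replicate 1. Of 9 desmosome-associated and pannexin genes, 1 was called, PANX2, a pannexin channel gene, higher in vehicle than in Normal in both lines. The limma adjusted p of the calls in this paragraph was at most 0.029.

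Of 11 transcription factors and genes of epithelial-mesenchymal transition, 2 rose with R1881 in both lines, SNAI2 and TWIST1. Over all genes, 1.23% were called higher in LNCaP/Empty and 1.02% in HIF12. The shares for other comparisons are those given for the partners. No other gene of the list was called with R1881. SNAI2, the E-box repressor SLUG, was not detected on any vehicle array and was detected on all 10 R1881 arrays, at mean levels of 8.89 in LNCaP/Empty and 8.02 in HIF12, or at least 8.02-fold and 4.45-fold higher. Under R1881 it was lower in HIF12 by 0.87 (limma adjusted p = 0.011). TWIST1, a transcription factor of the same programme, rose by 0.99 and 0.87 (limma adjusted p = 1.9e-08 and 4.3e-07), and was also higher in HIF12 than in LNCaP/Empty under each treatment and in HIF49 by 1.47 (limma adjusted p = 4.6e-13), or by 1.44 without replicate 1 (limma adjusted p = 6.5e-12). VIM, the gene for the mesenchymal filament vimentin, was lower in HIF12 by 0.80 in vehicle and by 0.94 in R1881 (limma adjusted p = 1.4e-06 and 5.6e-08). In Normal VIM was not called against LNCaP/Empty in HIF12 or in HIF49. Of 10 epithelial regulators, KLF4 rose with R1881 in both lines, from 1 of 5 vehicle arrays detected in each to 4 of 5 and 5 of 5, and ELF3 fell in both. KLF5 was called higher in LNCaP/Empty, where 1 R1881 array and no vehicle array detected it. No epithelial regulator on that list was called between a HIF1a clone and LNCaP/Empty.

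Of 10 luminal markers, 4 were called higher with R1881 in both lines, KRT19, KLK3, KLK2 and TMPRSS2. Over all genes the shares were 1.23% in LNCaP/Empty and 1.02% in HIF12. The same 4 markers were lower with vehicle than in Normal in both lines, and 1 other was higher in HIF12. Of all genes, 2.59% were called lower in LNCaP/Empty, and 2.35% lower and 3.47% higher in HIF12. KLK3 was lower in HIF12 than in LNCaP/Empty under each treatment, while KLK2 was higher in vehicle and in Normal and KRT19 in vehicle. Some markers of other cell types also moved with these comparisons. Of 7 fibroblast or smooth muscle markers 1 was detected on all arrays, COL1A2, COL3A1 and PDGFRB were detected on none, and ACTA2 was called higher for HIF12 over LNCaP/Empty both in vehicle and in Normal, lower in HIF49 than in either line with and without replicate 1, and lower with vehicle than in Normal. The summed intensity of that list was 2004 to 2415 in LNCaP/Empty, 2741 to 3777 in HIF12 and 1589 to 1948 in HIF49 in Normal, and 1034 to 1255 in LNCaP/Empty and 1342 to 1501 in HIF12 with vehicle. Of 4 endothelial markers PECAM1, CDH5 and KDR were detected on none and VWF was called higher in both clones in Normal and lower with vehicle than in Normal in HIF12 (-0.91, limma adjusted p = 0.0014). The VWF call in HIF49 was lost without replicate 1, where the difference was 0.54 (limma adjusted p = 0.16). That list summed to 599 to 894 in LNCaP/Empty, 1015 to 1142 in HIF12 and 804 to 1169 in HIF49 in Normal, and to 602 to 711 and 643 to 811 with vehicle. Of 4 basal markers ITGA6, which no vehicle array detected, was at least 1.25-fold lower with vehicle than in Normal in LNCaP/Empty and at least 1.16-fold lower in HIF12, and no leukocyte marker was called. The part of these genes in the junction results was not tested.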

How the data were processed

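The main table held raw bead intensities as deposited, each with its deposited detection p-value and before any correction. A further deposited table held linear intensities whose columns shared 1 distribution, as quantile normalization leaves them. Differential expression in the study used LIMMA on corrected, normalized and log2 transformed values at a false discovery rate of 0.05 and 1.5-fold. How the values were corrected and normalized is not named in the sources used here, and the study's filter on probe match scores was not applied here.

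Of 48107 probes, 30112 carried 1 gene symbol, 8 several and 17985 none, and 2 with missing values were dropped. Background was removed by nec (limma 3.58.1, R 4.3.3; offset 16) with negative controls inferred from the detection p-values before quantile normalization and log2 transformation. lmFit and eBayes were fitted to all 36 arrays with 1 mean per group and no filter on dim probes, and each adjusted p comes from this fit. The number of arrays limits the precision. A gene was read from its probe with the highest mean intensity. For a group with no detected array, the fold was bounded by the lowest detected signal of each array. The adjusted p given beside such a bound is that of the fitted difference.

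The members, lists and motifs were chosen with earlier results of these data known, and the HIF motifs after the promoters had been read. Named in full were members called in at least 1 of 9 comparisons of groups and detected on all arrays of at least 1 group; other members were named by family, and up to 3 called genes per list. Same-numbered arrays did not deviate together. Of 45 pairs of groups and numbers, 1 had a correlation of deviations over 0.1 (range -0.12 to 0.12), so numbers were not used as pairs. Tested on simulated data for HIF12 against LNCaP/Empty in vehicle over 48105 probes, the fit called 42% of 50 genes changed 1.5-fold, 88% of 50 changed 2-fold and 100% of those changed 3- or 4-fold, with 3 false calls. Noise was drawn for each probe separately. A true change of 1.5-fold lies on the fold threshold, so the share called there was set largely by that threshold. Promoters came from RefSeq (GRCh38.p14), where 40 of 57 members matched. Alternatives were no background correction, median scaling, the deposited normalized table, probes detected on at least 5 arrays, the compared arrays alone, the replicate block, running numbers in blocks of 12, any probe of a gene, and each array left out in turn.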

Additional observations from a re-analysis of the deposited data

Results flagged for a closer look

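Within groups, 16 of the 154 groups of levels of 22 junction genes held 1 array far from the others by Dixon's criterion, which chance gives in about 1 in 20. Of these, 4 were HIF49 replicate 1: CDH1 read 12.19, CLDN23 8.27, DSP 8.24 and JUP 12.06, below or, for JUP, above the other 4 arrays. GRHL2 in HIF49 stood apart at 9.54 in replicate 5. In LNCaP/Empty vehicle replicate 5, TJP1 read 9.65 and CLDN14 8.16, both below the rest. In LNCaP/Empty, DSP stood high at 9.23 in Normal replicate 2 and GJC1 low at 12.94 in R1881 replicate 1. In HIF12 Normal, GJB1 stood high at 6.66 in replicate 2 and MARVELD2 high at 8.05 in replicate 4. In HIF12 vehicle, DSC2 stood low at 11.38 in replicate 4 and TJP1 low at 9.82 in replicate 1. In HIF12 with R1881, CLDN7 stood low at 11.32 in replicate 1, JUP low at 11.43 in replicate 2 and GRHL2 high at 10.84 in replicate 5.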

How the results depend on the processing

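No direction reversed. Of 88 counts of called junction genes under the processing alternatives, 75 stayed within 1.5 times the main count, and of 134 with 1 array left out, 127 did. Without background correction and with the deposited normalized table, HIF12 against LNCaP/Empty fell to 1 call in vehicle and to 1 in Normal, and HIF49 against LNCaP/Empty to 1, DSC2 each time, because the DSC1 and GJB1 differences shrank below 1.5-fold, and vehicle against Normal in HIF12 fell to 0. With running numbers in blocks of 12, HIF12 against LNCaP/Empty in vehicle gave 1, GJB1, since DSC2 was 0.58 there. Vehicle against Normal in HIF12 gave 2 with median scaling, with blocks of 12 and with any probe, as TJP1 joined DSC1, and 2 in LNCaP/Empty with any probe, as MARVELD2 joined TJP1. Leaving out 1 array gave 1 to 2 for vehicle against Normal in LNCaP/Empty (2 without vehicle replicate 2), 1 to 2 in HIF12 (2 without Normal replicate 3 or vehicle replicates 2, 3, 4 or 5), and 0 to 1 for the difference between them (DSC1, without HIF12 Normal replicate 4).

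Single DSC1 differences fell under 1.5-fold without LNCaP/Empty Normal replicate 2 (0.57) or HIF12 Normal replicate 1 (0.56) in HIF12. For HIF49 against HIF12 they did so without HIF49 replicates 2 and 5 or HIF12 Normal replicates 2 and 4 (0.51 to 0.58) and with median scaling (0.58). The replicate block, which rests on shared numbers alone, changed no call, with 2 junction genes called for R1881 in LNCaP/Empty. Signal over background limits DSC1 and GJB1, which lay near the detection floor, and probes at the floor have no order. Changes near 1.5-fold can be missed, since the fold threshold lies there and the arrays per group are few.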
